A study of Mus musculus with 12 samples.

Results

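The genes described here are 42 genes of the mitotic spindle, the kinetochore and cytokinesis, chosen by name as a functional list. No measured value entered the rule, but earlier results of these data were known when the list was chosen. All 42 were found by symbol among the 27998 genes of the single-cell tables and by Entrez identifier among the 40814 genes of the neurosphere count table, and all 42 passed the filter on low counts there. They were measured in the dentate gyrus of the mouse, the part of the hippocampus in which granule neurons are born, and in neurospheres grown from it, which are floating clusters of neural stem and progenitor cells. Larp7 encodes a protein that binds and stabilises the 7SK small nuclear RNA, a scaffold that holds the transcription elongation kinase P-TEFb inactive.

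The tissue data were 3 single-cell RNA libraries of dissected dentate gyrus at postnatal day 7, with 1 library for each genotype: wild-type, Larp7f/f;nestin-Cre and Larp7f/f;Emx1-Cre. The wild-type controls of the study carry the floxed Larp7 alleles without Cre, and several gyri of littermates were combined for a library. Nestin-Cre acts in neural progenitors throughout the nervous system and in some other organs, whereas Emx1-Cre acts in progenitors of the dorsal telencephalon. The genotype entries of the 2 mutant tissue libraries are the reverse of their titles, and the titles were followed here. The numbers of cells that the study states for these genotypes are also nearer to the barcode numbers of the libraries so titled, 7177 for nestin-Cre and 6821 for Emx1-Cre, than to the reverse. The culture data were 5 RNA-seq libraries made after differentiation to day 2 of neurospheres from neonatal gyri, of which 2 were wild-type and 3 Larp7f/f;Emx1-Cre (Larp7 KO below). Nothing in the labels says whether these 5 libraries came from separate mice or cultures, so that p-values measure only the spread between these samples.

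At mitosis, the cyclin B and Cdk1 kinase drives entry, motor proteins of the kinesin superfamily build the bipolar spindle, and kinetochores on the centromeres capture microtubules. The spindle checkpoint holds the cell until every kinetochore is attached. The anaphase-promoting complex then destroys cyclin B and securin, and the central spindle directs cleavage of the cell. In the early postnatal dentate gyrus the dividing cells are radial glia-like cells (RGLs), neuronal intermediate progenitor cells (nIPCs), which are the main amplifying pool of the granule lineage, and dividing glia such as oligodendrocyte progenitor cells (OPCs) and microglia. Many genes of this set are held off early in the cycle by the DREAM complex and switched on in G2 by B-Myb and FoxM1 through a promoter element, TTTGAA or TTTAAA, called the cell cycle genes homology region, often near a CCAAT box.

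RefSeq promoter windows on GRCm38.p6, from 250 bases before to 50 bases after a start site, were at hand for 35 of the 42 genes (not for Kif20a, Incenp, Aurkb, Ccna2, Tpx2, Spc24 and Foxm1). The 100 bases before the start are printed here, 5′ to 3′ on the strand of the gene, for 5 genes that recur below and for Pttg1, which differed from the other members in both experiments. Capitals mark TTTGAA and CCAAT or, where they lie on the other strand, TTCAAA and ATTGG. All 5 genes printed beside Pttg1 hold both words, which is not so for every member. Birc5 and Ccnb1, which also recur below, have TTTAAA but no TTTGAA in their windows.
Cdc20, minus strand, chr4:118437344-118437443: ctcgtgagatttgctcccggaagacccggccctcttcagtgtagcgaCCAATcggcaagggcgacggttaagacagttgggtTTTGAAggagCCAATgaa
Cdk1, minus strand, chr10:69352913-69353012: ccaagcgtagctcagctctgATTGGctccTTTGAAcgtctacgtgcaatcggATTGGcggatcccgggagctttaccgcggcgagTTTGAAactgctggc
Ube2c, plus strand, chr2:164769829-164769928: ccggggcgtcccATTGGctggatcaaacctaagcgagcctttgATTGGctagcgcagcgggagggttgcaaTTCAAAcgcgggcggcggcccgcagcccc
Top2a, minus strand, chr11:99024190-99024289: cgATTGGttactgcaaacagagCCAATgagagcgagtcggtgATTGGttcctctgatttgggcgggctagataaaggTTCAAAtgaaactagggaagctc
Kif11, plus strand, chr19:37376282-37376381: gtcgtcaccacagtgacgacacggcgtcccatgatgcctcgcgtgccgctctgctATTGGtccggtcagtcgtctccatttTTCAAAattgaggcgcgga
Pttg1, minus strand, chr11:43425982-43426081: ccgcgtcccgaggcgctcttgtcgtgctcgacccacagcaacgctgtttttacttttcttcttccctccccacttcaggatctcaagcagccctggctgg

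TTTGAA was present on either strand in the windows of 26 of the 35 members (74.3%), against 20.2% of the 27025 genes with a window, and in 24 of the members it lay within 50 bases of the start. CCAAT was present in 24 (68.6%) against 41.1% of genes, and both words together in 21 (60.0%) against 7.97%. TTTAAA was present in 9 members (25.7%) against 14.9% of genes. The words TTTCCCGC, TTTCGCGC, TTTGCCGC and TTTGGCGC, searched together as a site for E2F factors, were present in 3 members (8.57%) against 2.60% of genes. These are matches of letters in a window and were not tested. The Pttg1 window held neither word in the printed bases, and its start site lies inside the annotated gene, which extends from 43420244 to 43427463 on chromosome 11.

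Larp7 itself was low in every library labelled as mutant. In nIPC-gated cells it stood at 86.1 CPM (a gene's counts per 1000000 counts of the library, here its UMIs against the summed UMIs of the gated cells) in wild-type, 12.7 in Larp7f/f;nestin-Cre and 16.6 in Larp7f/f;Emx1-Cre. In neurospheres it stood at 42.8 and 35.0 CPM in wild-type and at 4.17, 6.35 and 4.39 in Larp7 KO, and it fell by 2.97 on the log2 scale (SE 0.21, edgeR adjusted p = 0.02).

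The tissue libraries differed in depth before any gene was compared. The wild-type library had 12876 barcodes, of which 10997 passed the filters, with a median of 1782 UMIs per cell. The 2 mutant libraries had 6685 and 6531 passing cells with medians of 3644 and 3873 UMIs. From 11 to 23 barcodes were shared between any pair of libraries. Cells were assigned to types by 8 marker genes per type, and 40.2% of wild-type cells reached no gate, against 16.4% and 12.9% in the mutants. With 1 library per genotype no test between genotypes exists in the tissue, and the 95% intervals given for it cover counting error only. Both mutants were compared with the same wild-type library, so the comparisons are not independent of each other.

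The nIPC gate held 1043 wild-type, 621 Larp7f/f;nestin-Cre and 947 Larp7f/f;Emx1-Cre cells. Its defining marker Eomes, a T-box factor of intermediate progenitors, stood at 462, 662 and 614 CPM inside the gate and at 93.2, 104 and 85.5 in the other cells. Of the 8 markers, 7 were higher inside the gate in all 3 libraries, and Btg2 was lower inside it (312, 266 and 304 against 419, 461 and 530 CPM). In the RGL, OPC, microglia and neuroblast gates all 8 markers were higher inside.

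Of the 5 types described here, nIPCs held the most of these RNAs. They made up 65.5, 64.4 and 64.9 of every 10000 UMIs of nIPC-gated cells in wild-type, Larp7f/f;nestin-Cre and Larp7f/f;Emx1-Cre, in that order here and below. In OPC-gated cells, the dividing precursors of the oligodendrocyte lineage, they made up 33.0, 23.8 and 23.7. Microglia, the resident macrophages of the brain, held 28.4, 19.2 and 23.7. RGLs, the stem cell-like population, held 19.8, 15.1 and 20.8. Neuroblasts, which have largely left the cycle, held 5.94, 4.37 and 4.55. The nIPC level was thus the highest of these 5 gates and the neuroblast level the lowest in each library. In these sums the 3 genotypes lay closest together in nIPCs. An interneuron gate of 2, 25 and 27 cells held 17.4, 91.6 and 85.3 and is too small to follow. The closeness in nIPCs did not hold at equal depth. With cells thinned to an equal number of UMIs, as described below, nIPCs held 50.1, 38.1 and 42.4. OPCs then held 18.3, 15.4 and 17.3, which lay closer together. Without thinning, the median nIPC-gated cell held 19.9, 9.89 and 14.7 per 10000 UMIs, so the genotypes also differed more per cell than in the sums.

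To separate how many cells divide from how much each dividing cell contains, cells were gated as G2/M or S by 20 genes each, none of them a member. A cell entered a gate with at least 20 panel UMIs per 10000 and at least 5 panel UMIs, and G2/M took precedence. In nIPCs 38.3% of wild-type cells (95% exact binomial interval 35.3 to 41.3), 40.1% of Larp7f/f;nestin-Cre cells (36.2 to 44.1) and 43.6% of Larp7f/f;Emx1-Cre cells (40.4 to 46.8) fell in the G2/M gate. The S gate took a further 11.1%, 14.5% and 13.4%, for 49.4%, 54.6% and 57.0% in either gate.
When every cell was thinned to 1500 UMIs, which left out 4785 of the 10997 wild-type cells and 597 and 439 of the mutant cells, wild-type had the highest share, whichever minimum of panel UMIs was used. With the minimum of 5 kept, 42.6%, 37.7% and 41.7% reached either gate and 33.7%, 27.1% and 30.6% the G2/M gate. With a minimum of 3, used for all thinned shares below unless stated, these were 57.0%, 51.4% and 54.0%, and 44.0%, 36.7% and 41.4%. Without thinning, the minimum of 3 gave 54.7%, 54.9% and 57.0% in either gate. No order of the genotypes in the share of cycling nIPCs is therefore read from these libraries. In neuroblasts 2.93%, 1.79% and 2.15% of cells reached either gate before thinning, at median depths of 3092, 3582 and 3788 UMIs. After thinning this was 1.75%, 0.919% and 1.13% with the minimum of 5 and 7.49%, 5.02% and 6.12% with the minimum of 3, so the lower minimum also takes in more cells of a type that has largely left the cycle.

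Within G2/M-gated nIPCs the members made up 120, 123 and 114 of every 10000 UMIs. In G2/M-gated RGLs the values were 93.3, 111 and 105, in OPCs 114, 110 and 96.3, and in microglia 70.9, 94.7 and 99.2. Thinned, with the minimum of 3, G2/M-gated nIPCs held 101, 93.1 and 93.4 and RGLs 61.3, 69.3 and 69.7. OPCs then held 111, 82.9 and 94.5 and microglia 61.2, 74.0 and 85.9. The order of the genotypes in G2/M-gated nIPCs thus moved with depth. Cells in neither gate held 8.82, 4.53 and 5.26 in nIPCs, 6.34, 3.32 and 3.63 in RGLs, 5.26, 3.01 and 2.83 in OPCs, 14.0, 4.26 and 5.28 in microglia and 3.05, 2.18 and 2.10 in neuroblasts. The wild-type library thus stood above both mutants outside the cycle gates in all 5 types, neuroblasts included. After thinning, with the minimum of 3, wild-type still stood highest among cells in neither gate. The values were 7.37, 4.40 and 4.58 in nIPCs, 2.46, 2.00 and 2.10 in neuroblasts, and 7.97, 4.53 and 6.14 in microglia, a smaller gap. Without thinning, a minimum of 3 in place of 5 moved the microglial G2/M share from 18.2%, 12.4% and 14.6% to 27.7%, 13.2% and 15.7%. The parts of the gate minimum and of free RNA in the droplets were not tested.

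**Figure D1:**
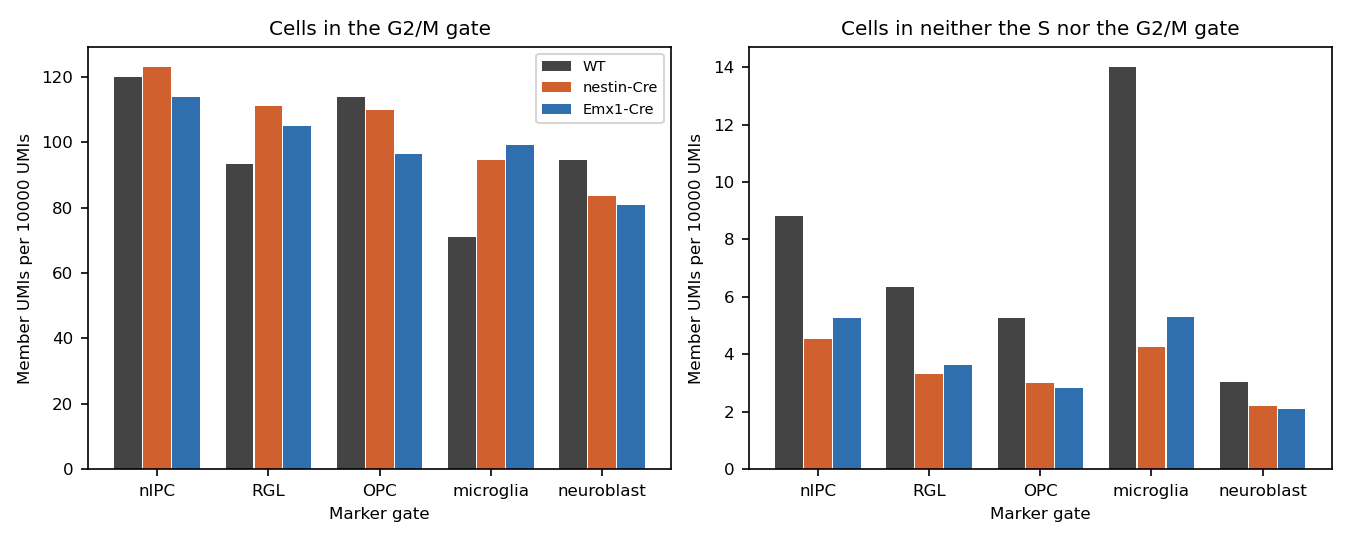
Bars from 0 give member UMIs per 10000 UMIs by marker gate (horizontal axis) and library (colour), with 1 bar per library and no error bars, on the left for cells in the G2/M gate and on the right for cells in neither cycle gate, with separate vertical scales. On the right the wild-type bar stands above both mutants in each gate, with 14.0 against 4.26 and 5.28 in microglia. In cells thinned to equal depth, which are not drawn, the microglial values were 7.97 against 4.53 and 6.14.

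The members followed the cycle gates in nearly every case. Summed over nIPC-gated cells, they were higher in G2/M-gated than in S-gated cells by a log2 ratio of 3.44 (95% Poisson interval 3.31 to 3.57) in wild-type, 3.67 (3.53 to 3.81) in Larp7f/f;nestin-Cre and 2.97 (2.88 to 3.07) in Larp7f/f;Emx1-Cre. Of the members with at least 100 UMIs over both gates, 39 of 40, 37 of 37 and 38 of 42 were at least 4-fold higher in G2/M, against 2.43%, 2.51% and 1.70% of all genes with that many UMIs. The spindle assembly group, of 2 genes, had ratios of 4.12, 4.02 and 3.22. The kinetochore group had 3.91, 3.97 and 3.18 and the anaphase group 3.87, 3.99 and 3.66. The midzone and cytokinesis group had the lowest, at 2.76, 2.90 and 2.35.

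Within the set there was an order. By the median of the libraries, the highest ratios were those of Kif2c (5.32), a microtubule-depolymerising kinesin, Cenpa (4.67), the centromeric histone H3 variant, Cenpf (4.63), a large kinetochore protein, Ube2c (4.60), the ubiquitin-conjugating enzyme of the anaphase-promoting complex, Cenpe (4.48), the kinetochore motor, and Cdc20 (4.46), an activator of that complex. The Kif2c value is the least certain, since it rests on 5, 1 and 1 UMIs in S-gated cells.
At the low end stood Spc24 (2.12), a subunit of the Ndc80 complex, Racgap1 (2.08), a part of centralspindlin, and Anln (1.59), the actin-binding scaffold of the contractile ring. Racgap1 was present already in S-gated cells at 79.2, 83.3 and 97.2 CPM, against 359, 352 and 321 in G2/M. Across the 41 genes with a ratio in every library the ratios had a Pearson correlation of 0.68 between wild-type and Larp7f/f;nestin-Cre, 0.65 between wild-type and Larp7f/f;Emx1-Cre and 0.82 between the mutants. These are descriptions across genes, which are not independent replicates. Ttk, the checkpoint kinase Mps1, had no UMI in the S-gated cells of Larp7f/f;nestin-Cre against 85 in G2/M, and it has no ratio there.

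Pttg1, which encodes securin, the inhibitor of the protease that cuts cohesin, did not follow the cycle gates. It stood at 37.4, 40.5 and 44.1 CPM in S-gated nIPCs and at 40.3, 41.6 and 34.1 in G2/M-gated nIPCs, and at 32.7, 30.9 and 33.6 in cells in neither gate. The log2 ratios of G2/M over S were 0.11, 0.04 and -0.37, and each interval included 0. Cdc20, which directs the destruction of securin, went from 10.9, 3.53 and 11.6 CPM in cells in neither gate through 19.8, 13.5 and 10.6 in S to 357, 298 and 288 in G2/M. In the RGL gate as a whole Pttg1 stood at 61.6, 74.1 and 73.7 CPM, above its 37.1, 37.6 and 35.3 in the nIPC gate, the reverse of the order of the set.

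**Figure D2:**
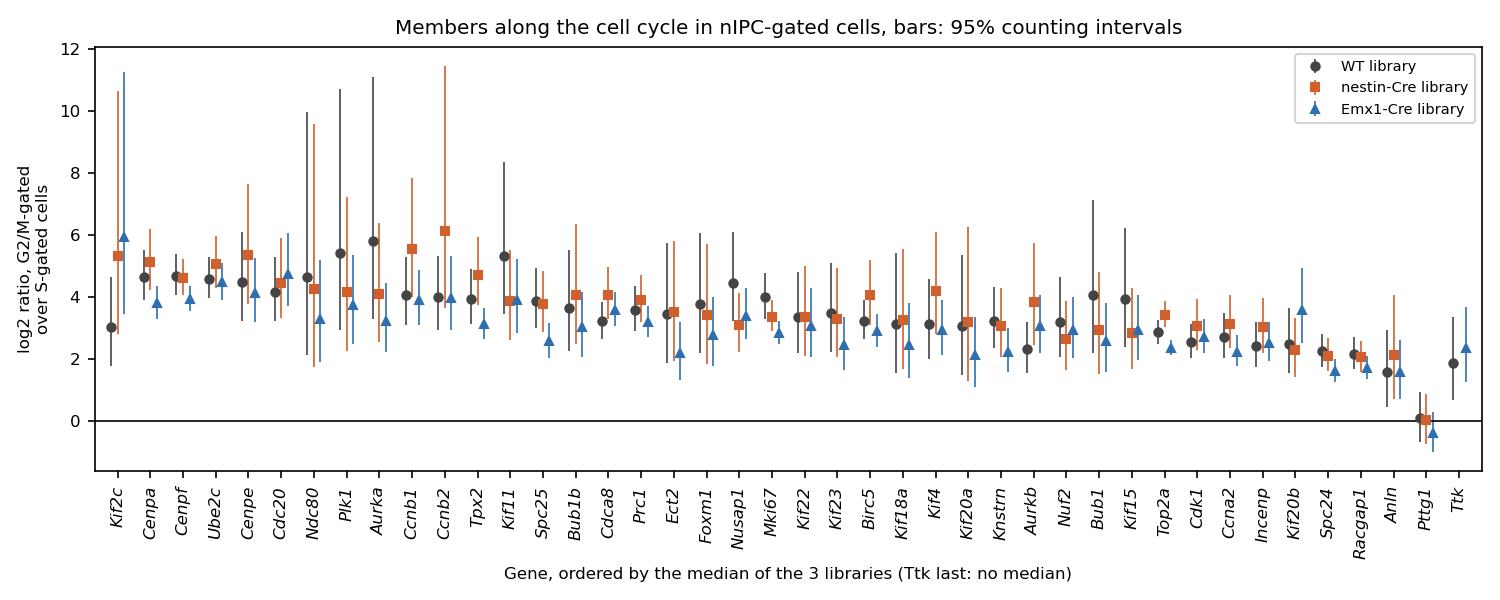
Log2 ratio of CPM in G2/M-gated over S-gated nIPCs for each member and library, ordered by the median of the 3 libraries, with bars for 95% counting intervals. All medians but that of Pttg1 (0.04) lie at or above 1.59.

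The nIPC comparison asks whether loss of Larp7 moved these genes in the progenitors that divide most. All 42 members had at least 100 UMIs over the libraries compared. In Larp7f/f;nestin-Cre none was at least 1.5-fold higher (5.93% of the 7602 genes with that many UMIs were) and 2, Cdk1 and Ccnb2, were at least 1.5-fold lower (4.30% of genes). In Larp7f/f;Emx1-Cre none was 1.5-fold higher (4.15% of 8280 genes) or lower (1.71%). The summed level of the set differed from wild-type by a log2 ratio of -0.02 (-0.05 to 0.00) and -0.01 (-0.04 to 0.01).

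Single members lay on both sides of 0. In Larp7f/f;nestin-Cre 13 were higher and 29 lower than wild-type, with a median log2 ratio of -0.10 against 0.02 over all genes, and the intervals of 6 lay above 0 and of 10 below (20.7% and 17.1% of all genes with at least 100 UMIs did). In Larp7f/f;Emx1-Cre 22 were higher and 20 lower, with a median of 0.02 against 0.05, and the intervals of 6 lay above 0 and of 9 below (18.8% and 11.8% of genes). Intervals that left out 0 were thus common among all genes. These counts move with the way the cells are summed: thinned to 1500 UMIs per cell, the medians were -0.47 and -0.28, and without the 5% of cells with most UMIs they were -0.01 and 0.44. Fewer members had a value compared after thinning, so its medians need not cover the whole set. No direction of the set as a whole is read from the tissue.

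Of the chromosome structure group, Mki67, which encodes the Ki-67 protein that coats mitotic chromosomes, stood at 321 CPM in wild-type, 450 in Larp7f/f;nestin-Cre and 390 in Larp7f/f;Emx1-Cre. Its log2 ratios were 0.49 (0.38 to 0.60) and 0.28 (0.18 to 0.38), and it was higher in both mutants under every alternative tried, from 0.14 to 0.67 and from 0.16 to 0.62. Top2a, the topoisomerase that untangles sister chromatids, stood at 495, 657 and 618 CPM. Its ratios were 0.41 (0.32 to 0.50) and 0.32 (0.24 to 0.40), but thinned cells gave -0.02 in Larp7f/f;nestin-Cre.

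Among the 9 kinesins, Kif4, the chromosome-bound motor that works with Prc1 at the midzone, stood at 62.8, 84.7 and 78.6 CPM, with log2 ratios of 0.43 (0.18 to 0.69) and 0.33 (0.09 to 0.56). Kif20a, a motor of the central spindle, stood at 30.2, 21.6 and 30.6 CPM, with ratios of -0.48 (-0.93 to -0.04) and 0.02 (-0.34 to 0.38). Kif22, a chromosome-arm motor, had ratios of -0.27 (-0.54 to 0.00) and -0.33 (-0.57 to -0.09), the latter at 0.02 in means of log-normalized values and 0.08 without the most UMI-rich cells. The intervals of the 6 other kinesins, the bipolar spindle motors Kif11 and Kif15 among them, included 0 in both mutants.

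In the centromere and kinetochore group Cenpf stood at 649, 769 and 709 CPM, with ratios of 0.25 (0.16 to 0.33) and 0.13 (0.05 to 0.20) that turned to -0.24 and -0.25 in thinned cells. Knstrn, which encodes kinastrin, a kinetochore and spindle protein, stood at 120, 85.6 and 82.3 CPM, with ratios of -0.49 (-0.71 to -0.27) and -0.55 (-0.74 to -0.35). Knstrn was below wild-type in both mutants under every alternative. Cenpa was at -0.06 and -0.16, Cenpe at 0.07 and -0.01, and of the Ndc80 complex Nuf2 was at -0.09 and 0.04 and Spc25 at -0.14 and -0.23. The checkpoint genes Bub1, Bub1b and Ttk, which sense unattached kinetochores, had intervals that included 0 throughout, with Ttk at 0.05 (-0.38 to 0.48) and 0.22 (-0.15 to 0.60).

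All 5 genes of the Aurora and chromosomal passenger group were below wild-type in Larp7f/f;nestin-Cre, the intervals of 3 of them below 0, and 2 of 5 were in Larp7f/f;Emx1-Cre. Birc5, which encodes survivin, the small subunit that brings Aurora B to centromeres, stood at 260, 175 and 199 CPM, with ratios of -0.57 (-0.72 to -0.42) and -0.39 (-0.51 to -0.26). Aurkb, the kinase that corrects faulty attachments, stood at 84.0, 65.9 and 77.6 CPM, with ratios of -0.35 (-0.61 to -0.10) and -0.11 (-0.33 to 0.10). Incenp, the scaffold of the same complex, was at -0.05 and 0.03, and Cdca8, which encodes borealin, at -0.14 and 0.10, so the subunits of one complex did not share one value.

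The entry kinases were split in the same way. Ccnb2, a B-type cyclin, stood at 134, 80.9 and 93.8 CPM, with ratios of -0.73 (-0.95 to -0.51) and -0.51 (-0.70 to -0.33), and remained lower in both mutants under every alternative. Cdk1, its catalytic partner, stood at 210, 136 and 170 CPM, with ratios of -0.63 (-0.80 to -0.46) and -0.30 (-0.44 to -0.16), the second at 0.04 in means of log-normalized values and 0.20 without the most UMI-rich cells.
Ccnb1, the other B-type cyclin, stood at 159, 160 and 152 CPM, with ratios of 0.01 (-0.17 to 0.18) and -0.07 (-0.22 to 0.09). Plk1, the polo kinase of mitotic entry, stood at 49.2, 41.4 and 55.7 CPM, and its intervals included 0 in both mutants, as did those of the A-type cyclin Ccna2, at -0.08 and 0.14. The annotation holds a pseudogene of Ccnb1 and one of Ccnb2, and reads shared with them were not resolved here.

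Of the anaphase group, Cdc20 stood at 188, 152 and 159 CPM, with ratios of -0.31 (-0.48 to -0.14) and -0.24 (-0.38 to -0.09), the second at 0.06 in means of log-normalized values and 0.22 without the most UMI-rich cells. Ube2c stood at 622, 522 and 486 CPM, with ratios of -0.25 (-0.34 to -0.16) and -0.35 (-0.44 to -0.27), the second at 0.11 without those cells. Pttg1 stood at 0.02 and -0.07.
Tpx2, which nucleates spindle microtubules near chromosomes, stood at 221, 245 and 253 CPM, with ratios of 0.15 (0.00 to 0.29) and 0.19 (0.07 to 0.32), the second at -0.18 in thinned cells. Nusap1, which bundles spindle microtubules, was at -0.17 and -0.02. Of the midzone group Prc1, which bundles antiparallel microtubules, had 0.14 (0.00 to 0.27) and 0.14 (0.02 to 0.26), and Ect2, the exchange factor that activates RhoA at the cleavage site, had 0.08 (-0.27 to 0.43) and 0.20 (-0.11 to 0.51). Foxm1, the transcription factor of the G2 programme, stood at 49.9, 38.8 and 47.8 CPM, with ratios of -0.36 (-0.70 to -0.03) and -0.06 (-0.34 to 0.22).

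**Figure D3:**
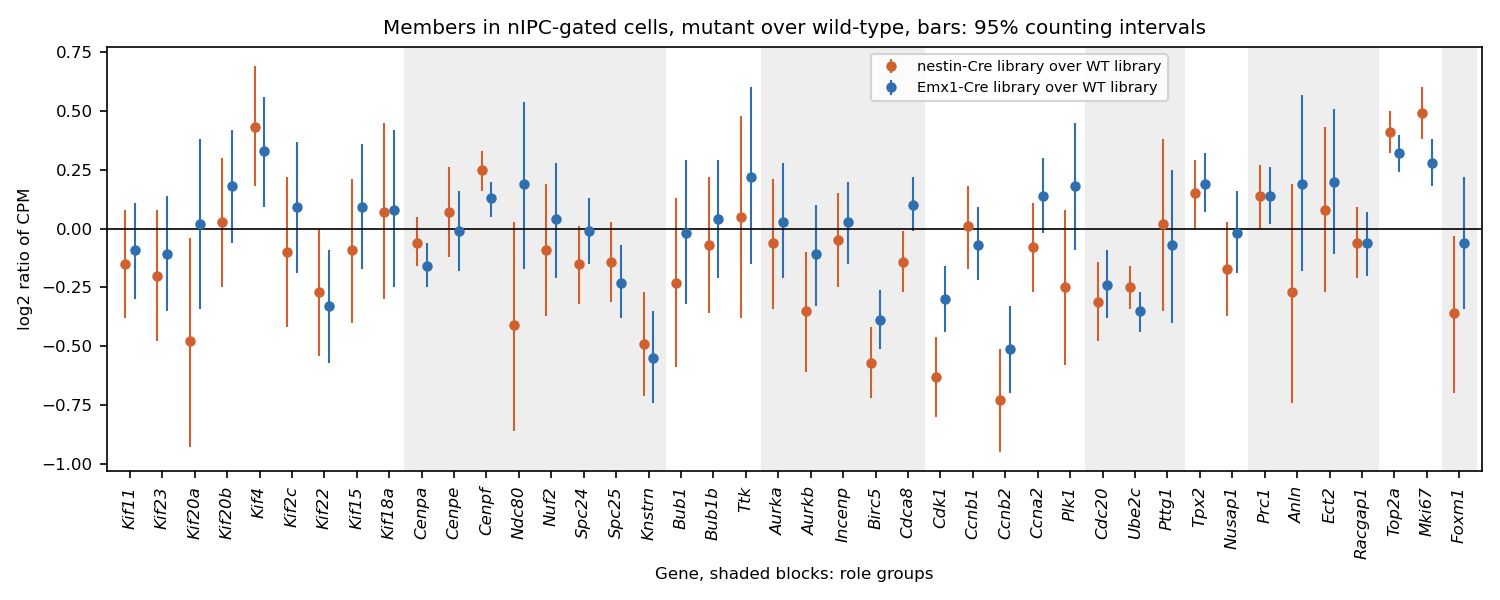
Log2 ratio of CPM in nIPC-gated cells, each mutant library over the wild-type library, for the 42 members grouped by role, with bars for 95% counting intervals. Mki67, Top2a and Kif4 stand highest in both mutants, and Ccnb2, Birc5 and Knstrn are among the lowest in both.

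Restricting the comparison to G2/M-gated nIPCs left out the cells outside that gate, and the genes named next for nIPCs kept their direction. Entry to the gate depends on depth, and the gated cells had medians of 4818, 6151 and 5958 UMIs. The median log2 ratio of members was -0.08 in Larp7f/f;nestin-Cre and -0.05 in Larp7f/f;Emx1-Cre, and the summed level differed by 0.04 (0.01 to 0.07) and -0.07 (-0.09 to -0.04). Mki67 was higher, at 598, 868 and 693 CPM, and so was Top2a, at 915, 1273 and 1093. Ccnb2 was lower, at 247, 159 and 169 CPM, as were Birc5, at 480, 338 and 352, and Knstrn, at 209, 151 and 137. The higher Mki67 and Top2a were not particular to nIPCs. In G2/M-gated microglia Mki67 stood at 385, 852 and 818 CPM and Top2a at 545, 1032 and 946. In G2/M-gated RGLs Mki67 stood at 481, 750 and 660 and Top2a at 675, 1019 and 1077. In G2/M-gated OPCs Mki67 stood at 649, 954 and 656 and Top2a at 882, 1138 and 1020.

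The length of the transcript went with the tissue ratios. Lengths of the longest coding transcript ran to 11130 bases for Cenpf, 10061 for Mki67 and 5221 for Top2a among genes that were higher, and down to 1531 for Ccnb2 and 2191 for Ube2c among genes that were lower. Per doubling of length the log2 ratio of members was higher by 0.16 in Larp7f/f;nestin-Cre and 0.11 in Larp7f/f;Emx1-Cre (Pearson 0.42 and 0.38 over 42 genes). Over all genes with a length, 7498 and 8156 of them, the slopes were 0.16 and 0.09 (Pearson 0.40 and 0.30). The members thus lay on a slope of the size found over all genes in the same pair of libraries. Single members departed from it. Knstrn, at 4602 bases, Cdk1, at 4375, and Birc5, at 3334, were low without being short, and Kif11, of 4819 bases, was at -0.15 and -0.09. Cenpe, at 7910 bases, was at 0.07 and -0.01, and Cenpa, the shortest member at 1466, was at -0.06 and -0.16. In thinned cells the slopes of members were 0.14 and 0.02 and those of all genes 0.15 and 0.10. Depth per cell differed between the same libraries, and the part of depth or RNA quality in this slope was not tested.

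**Figure D4:**
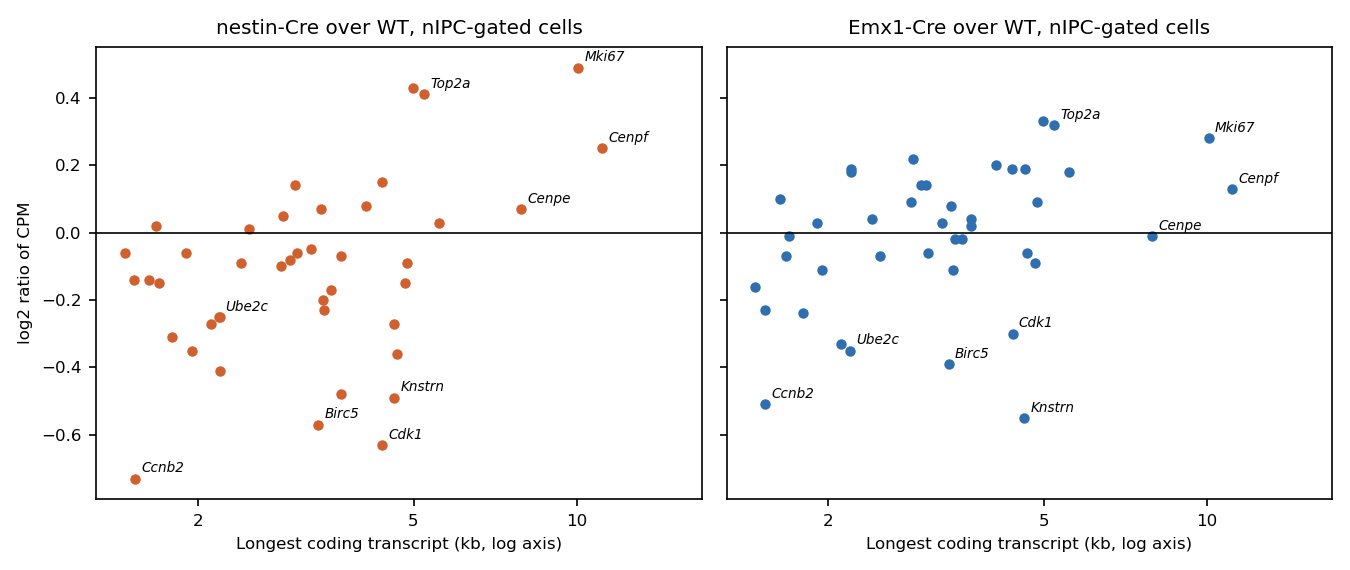
Log2 ratio of CPM in nIPC-gated cells (vertical axis) against the length of the longest coding transcript in kb (log axis), nestin-Cre over wild-type on the left and Emx1-Cre over wild-type on the right, with 1 point per member and some members named. Mki67, Cenpf and Top2a lie above 0 and to the right, Ccnb2 lies lowest at the short end on the left, and Knstrn, Cdk1 and Birc5 lie low at middle lengths.

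The other dividing types gave other medians against the same wild-type library. In RGLs 37 members had at least 100 UMIs in the Larp7f/f;nestin-Cre comparison, and 34 of them were lower, 11 by at least 1.5-fold (2.78% of 9203 genes). The median log2 ratio was -0.41 against 0.07 over all genes. In Larp7f/f;Emx1-Cre 18 of 39 were higher and 21 lower, none by 1.5-fold (4.67% of genes higher and 1.71% lower), with a median of -0.03 against 0.07. The G2/M gate held 10.6%, 6.80% and 10.6% of RGLs, and 17.8%, 10.1% and 10.3% after thinning, or 9.23%, 5.57% and 6.68% with the minimum of 5 panel UMIs. Within G2/M-gated RGLs the medians were 0.21 and 0.10 over 32 and 37 members, against 0.00 and 0.04 over all genes. The lower level in Larp7f/f;nestin-Cre was thus not present among its gated cells.

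In RGLs Birc5 stood at 76.2, 35.2 and 56.2 CPM, Ccnb2 at 41.1, 19.7 and 33.1, and Ube2c at 144, 76.7 and 116. Top2a stood at 144, 131 and 201, with ratios of -0.13 (-0.28 to 0.02) and 0.48 (0.36 to 0.61). Pttg1 was higher in both mutants, with ratios of 0.27 (0.05 to 0.48) and 0.26 (0.05 to 0.46).

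In OPCs 18 of 19 members with at least 100 UMIs were lower in Larp7f/f;nestin-Cre, 9 by at least 1.5-fold (4.70% of genes), and all 20 were lower in Larp7f/f;Emx1-Cre, 6 by 1.5-fold (1.59%). The medians were -0.49 and -0.46, against 0.06 and 0.06 over all genes. Within G2/M-gated OPCs, of which each library had 55 or fewer, they were -0.12 and -0.28, against -0.06 and -0.06. The G2/M share of OPCs was 15.5%, 11.8% and 14.4%, and 13.8%, 15.8% and 14.8% after thinning, or 10.7%, 7.72% and 10.7% with the minimum of 5 panel UMIs. Ube2c stood at 316, 153 and 158 CPM in OPCs, and Birc5 at 142, 78.6 and 66.1. Mki67 stood at 186, 202 and 156 CPM, with intervals that included 0.

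Microglia arise outside the neural lineages in which both Cre drivers act, and Larp7 stood at 58.3, 35.0 and 36.4 CPM in microglia-gated cells, a smaller difference than in nIPCs. Their members differed from wild-type as well. In Larp7f/f;nestin-Cre 25 of 27 members with at least 100 UMIs were lower, 14 by at least 1.5-fold (14.3% of genes), and in Larp7f/f;Emx1-Cre 20 of 25 were lower, 4 by 1.5-fold (10.2%). The medians were -0.59 and -0.32, against -0.04 and -0.02 over all genes. Within G2/M-gated microglia they were 0.25 and 0.50, against 0.00 and 0.00. Mki67 and Top2a were higher there in both mutants, as given above. Cdc20 stood at 78.1, 26.9 and 23.0 CPM in all microglia and Ube2c at 221, 98.6 and 122, whereas Top2a stood at 225, 200 and 213. The G2/M share of microglia was 18.2%, 12.4% and 14.6%, and 30.5%, 17.7% and 18.6% after thinning, or 13.6%, 9.09% and 11.3% with the minimum of 5 panel UMIs.

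To set the make-up of the mitotic programme in other types beside that in nIPCs, each member was expressed as a share of all member UMIs in G2/M-gated cells of a type, so that the level of the set drops out. Against nIPCs, 25 members in microglia had a share that differed in the same direction in all 3 libraries, 14 of them higher and 11 lower. In RGLs there were 25 (11 higher, 14 lower) and in OPCs 17 (10 higher, 7 lower). Taken as a share of all UMIs, 14 of the 25 members with at least 100 UMIs in both gated types went one way in all libraries in microglia, 27 of 38 in RGLs and 13 of 23 in OPCs, against 77.1%, 72.4% and 67.8% of all such genes. Such repeats were thus no more common among members than among all genes, and the values that follow are descriptions.
In microglia the highest were Kif23, the centralspindlin motor, with log2 ratios of shares of 0.52, 1.10 and 1.14, Ndc80, which binds microtubules at the kinetochore, with 0.70, 1.27 and 0.86, and Birc5, with 0.22, 0.81 and 0.79. Anln was also higher, with 0.59, 1.20 and 0.73. The lowest were Spc25, a subunit of the Ndc80 complex, with -0.29, -0.76 and -0.72, and Cdc20, with -0.03, -0.71 and -1.40. Ndc80 and Spc25 thus lay on opposite sides although their products sit in one complex. The microglial sums are small, with 26, 22 and 17 UMIs for Ndc80 and 51, 50 and 37 for Kif23.

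In G2/M-gated RGLs Pttg1 took a larger share than in nIPCs, by 0.97, 0.86 and 0.88, and so did Prc1, by 0.62, 0.75 and 0.71. Prc1 stood at 568, 814 and 747 CPM there, against 476, 542 and 500 in G2/M-gated nIPCs. Aurka, the centrosomal Aurora kinase, took a smaller share, by -0.37, -0.59 and -0.67, and so did Incenp, by -0.28, -0.41 and -0.55. In OPCs the kinesins Kif18a, which limits chromosome oscillation, and Kif22 took larger shares, with medians of 0.66 and 0.56. The wild-type library showed these orders together with both mutants, which is a repeat over libraries and not a test.

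In neurospheres the whole set stood higher in Larp7 KO, and the size of the difference rested on 1 wild-type library. The log2 fold change was above 0 for all 42 members (50.8% of the 17753 genes tested), with a median of 0.74 against 0.01 over all genes and a range from 0.10 for Pttg1 to 0.92 for Kif20a and Cdc20. In 40 of 42 members every Larp7 KO library lay above both wild-type libraries (21.3% of genes), the exceptions being Ccnb2 and Pttg1. No member passed an adjusted p of 0.05 in edgeR's quasi-likelihood test (0.0338% of genes did), with adjusted p from 0.126 to 0.704. An unadjusted p under 0.05 was reached by 31 members (21.7% of genes), and DESeq2 called 17 as higher (4.47% of genes).

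The 2 wild-type libraries lay far apart in these genes. Replicate 2 was below replicate 1 in 42 of 42 members, by at least 1.5-fold in 41 (12.5% of genes), with a median log2 difference of -1.01 and a range from -1.33 for Cenpa to -0.05 for Pttg1. The 3 Larp7 KO libraries of each member spanned less than 1.5-fold. The share of all genes that did so was not counted, so this is not read as a trait of the members. Summed over the set, wild-type stood at 4486 and 2214 CPM and Larp7 KO at 5789, 5687 and 5503.
Without wild-type replicate 2 the median log2 fold change was 0.31 and no member passed (0.0161% of genes passed as higher). Without wild-type replicate 1 it was 1.34 and 41 passed (5.61%). Every member kept a log2 fold change above 0 in both cases. In whole cultures, fewer dividing cells and less of these RNAs per dividing cell cannot be told apart.

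Top2a stood at 494 and 246 CPM in wild-type replicates 1 and 2 and at 634, 591 and 586 in Larp7 KO (log2 fold change 0.71, SE 0.27, edgeR adjusted p = 0.201). Mki67 stood at 398 and 199, and at 520, 521 and 494 (0.78, SE 0.26, adjusted p = 0.175 in edgeR). Both sets of libraries were without overlap, while the gap between the wild-type libraries was larger than that between replicate 1 and any Larp7 KO library.

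Cdc20 stood at 118 and 55.4 in wild-type and at 166, 163 and 160 in Larp7 KO (log2 fold change 0.92, SE 0.28, adjusted p = 0.154 in edgeR). Kif20a stood at 76.8 and 34.3, and at 114, 97.0 and 104 (0.92, SE 0.31). Ube2c stood at 108 and 50.3, and at 143, 135 and 139 (0.81, SE 0.29). These 3 genes of late mitosis showed the same arrangement of libraries as Top2a.

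Of the entry group, Cdk1 stood at 106 and 58.2 in wild-type and at 132, 128 and 127 in Larp7 KO (0.65, SE 0.23). Ccnb1 stood at 192 and 89.3, and at 263, 248 and 235 (0.82, SE 0.29). Plk1 stood at 102 and 48.2, and at 132, 126 and 126 (0.77, SE 0.28). Ccnb2 differed from its relative Ccnb1 in that its libraries overlapped, at 50.3 and 24.2 against 55.3, 48.1 and 48.6 (0.44, SE 0.28).

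Foxm1 stood at 141 and 73.5 in wild-type and at 198, 182 and 186 in Larp7 KO (0.82, SE 0.25). Aurkb stood at 59.0 and 30.1, and at 66.7, 64.3 and 65.9 (0.56, SE 0.26). Birc5 stood at 45.4 and 23.2, and at 54.8, 47.8 and 48.9 (0.56, SE 0.26). In both genes every Larp7 KO library lay above wild-type replicate 1, by less than replicate 1 lay above replicate 2.

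Pttg1 stood apart from the set, at 14.0 and 13.5 in wild-type and at 16.3, 12.8 and 15.2 in Larp7 KO (0.10, SE 0.13, edgeR adjusted p = 0.704). The median log2 fold changes by role ran from 0.60 for the midzone and cytokinesis genes through 0.68 for the entry kinases to 0.74 for the kinesins, the checkpoint, passenger and chromosome structure groups, 0.76 for the kinetochore genes and 0.81 for the anaphase and spindle assembly groups. These medians lie within the spread of the wild-type libraries.

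**Figure D5:**
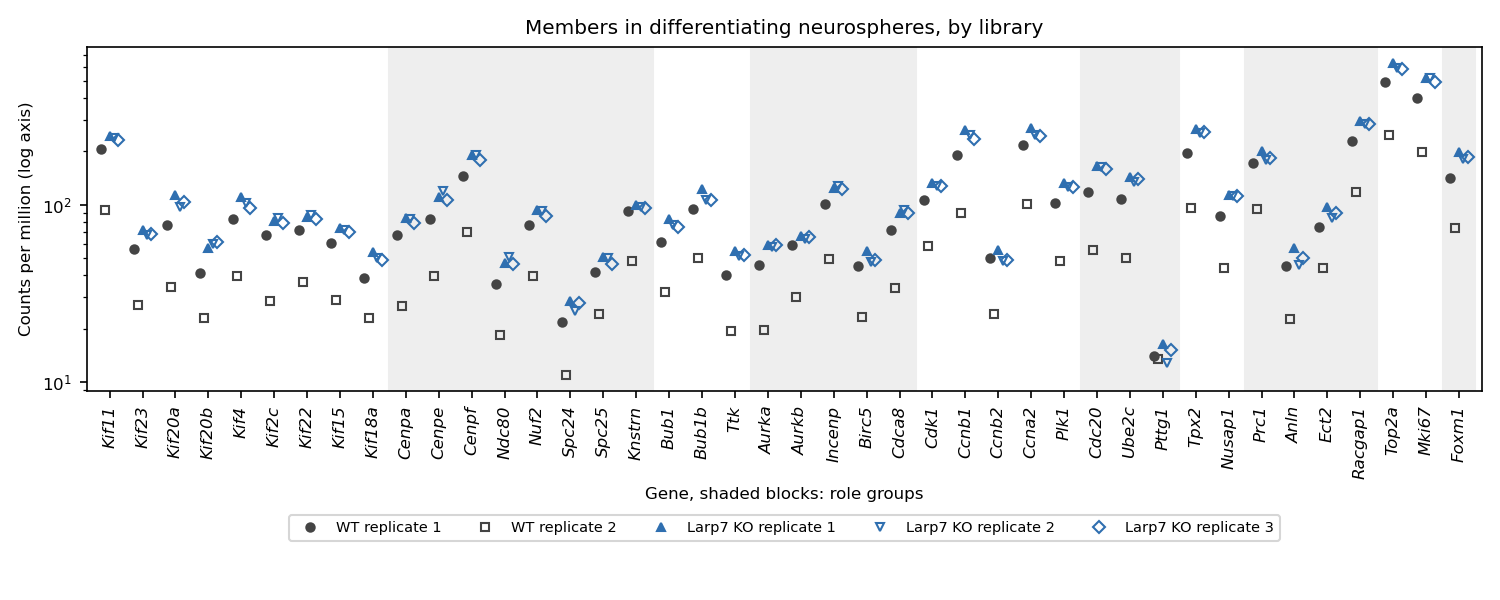
CPM (log axis) of each member in the 5 neurosphere libraries, grouped by role, with 1 point per library. Wild-type replicate 2 is the lowest library for nearly every gene, and the 3 Larp7 KO points lie close together, mostly above both wild-type points.

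Genes around the set stood higher as well, without passing the test. Of 47 other mitosis genes 46 had a log2 fold change above 0, with a median of 0.59, and none passed the adjusted threshold. The 20 genes of the S panel, which act in DNA replication, were all above 0 with a median of 0.57, and wild-type replicate 2 was below replicate 1 in all 20 with a median of -0.84. Among 14 regulators of the set, which were Fzr1 and genes of the DREAM complex, the retinoblastoma family and p53 signalling, 11 were above 0. Their median was 0.26 and none passed.
Mybl2, which encodes B-Myb, stood at 37.6 and 18.8 in wild-type and at 47.5, 45.5 and 45.4 in Larp7 KO (0.71, adjusted p = 0.201 in edgeR). Cdkn1a, the p53 target that encodes the inhibitor p21, stood at 80.7 and 57.4, and at 99.0, 101 and 125 (0.65, adjusted p = 0.126 in edgeR), without overlap of the libraries. In nIPC-gated cells Cdkn1a stood at 3.84 CPM in wild-type, 18.8 in Larp7f/f;nestin-Cre and 16.0 in Larp7f/f;Emx1-Cre, with log2 ratios of 2.29 (1.45 to 3.21) and 2.06 (1.25 to 2.96), while Mybl2 stood at 18.7, 20.7 and 19.1.

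Summed levels of markers of other cells also varied between these cultures. The 8 interneuron markers summed to 15.3 and 40.2 CPM in wild-type and to 9.73 to 10.6 in Larp7 KO, and the 8 maturing neuron markers to 80.8 and 125 and to 78.7 to 90.4. The 8 astrocyte markers summed to 177 and 208 and to 106 to 180. The 8 neuroblast markers summed to 110 and 117 and to 107, 118 and 120. The highest interneuron, maturing neuron and astrocyte sums belonged to wild-type replicate 2, the library with the lowest member levels, whereas the highest neuroblast sum belonged to a Larp7 KO library. Single markers went both ways: of those that passed the filter on low counts, 2 of 4 interneuron, 2 of 6 maturing neuron, 2 of 4 neuroblast and 1 of 8 astrocyte markers had a log2 fold change above 0. No marker of these lists passed the test. The microglial markers C1qa, C1qb, C1qc, Cx3cr1 and Trem2 had no count. The part of cell make-up in the member values was not tested.

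Set side by side, tissue and culture did not rank the members alike. The culture fold changes covered 0.10 to 0.92, whereas the tissue ratios covered -0.73 to 0.49 in Larp7f/f;nestin-Cre and -0.55 to 0.33 in Larp7f/f;Emx1-Cre. Across the 42 genes the Pearson correlation of the culture value with the tissue value was 0.16 for Larp7f/f;nestin-Cre and 0.32 for Larp7f/f;Emx1-Cre (Spearman 0.17 and 0.24). The genes share their libraries, so these are descriptions. The slope on transcript length was weak in culture, with a Pearson correlation of 0.21 over the 42 genes.
The intervals of 6 members lay above 0 in both tissue comparisons (13.3% of genes) and of 6 below 0 in both (9.24%), which share the wild-type library. Of those above, Tpx2 and Prc1 had lower bounds that round to 0.00 in Larp7f/f;nestin-Cre. Knstrn, Birc5 and Ccnb2, low in both mutants in nIPCs, had culture values of 0.48, 0.56 and 0.44, among the smaller of the set. Mki67 and Top2a, high in both mutants in nIPCs, had culture values of 0.78 and 0.71, near the median of the set.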

How the data were processed

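Whole-number counts were used as the authors deposited them. The authors made the single-cell UMI counts with Cell Ranger on mm10 (its version is given differently in the file header and in the methods), and the bulk read counts by aligning to the Ensembl mouse transcriptome with Minimap2; featureCounts is named in the submitters' processing notes. Strand and multi-mapping settings are not given in the sources used here. Of the 10 bulk count columns, 5 matched no sample and were not used, and the ATAC-seq and CUT&Tag samples were not analysed here. Library totals were 59821311 to 62474602 counts in bulk and 28918491, 26689878 and 28537738 UMIs in tissue. The members and lists were chosen with earlier results of these data known.

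Bulk counts were fitted over all genes with edgeR 4.0.16 (quasi-likelihood test, TMM, filterByExpr, Benjamini-Hochberg adjustment, threshold 0.05), with DESeq2 1.42.0 as an alternative, in R 4.3.3. The CPM of single genes used TMM-scaled totals and summed CPM plain totals. On simulated counts for 17289 genes in the same layout, 120 of 200 genes changed 2-fold were recovered with 4 false calls. Cells were kept if over 500 genes were detected and mitochondrial UMIs stayed below 15%. The study states slightly fewer cells than there are barcodes in the files and more than its stated filter leaves here. A cell was placed in the class, of 11, with the highest mean z-score over 8 markers, if at least 3 were detected and the score reached 0.5. Cycle gates needed at least 5 panel UMIs, or 3 after thinning to 1500 UMIs unless stated. Doublets were not called. UMIs were summed per library and gate, and pairs with at least 100 UMIs entered counts of 1.5-fold differences. Intervals are exact (Poisson for ratios of sums, Clopper-Pearson for shares), at 95%. Lengths came from GENCODE M21 and promoters from RefSeq.

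Members named with values were those of smallest and largest fold change in culture, the 5 highest and 5 lowest in each mutant in nIPCs, 1 or 2 per role group, and Larp7, Cdkn1a and Mybl2; others were named after their values were seen. Alternatives were size factors, filters, DESeq2, left-out libraries, a replicate block, thinning, log means, marker and gene minimums, and removal of cells with most UMIs.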

Additional observations from a re-analysis of the deposited data

Results flagged for a closer look

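Among the members named with values, 5 lay in opposite directions in the tissue and in culture, with every Larp7 KO neurosphere library above both wild-type libraries while the counting intervals of both mutant tissue libraries lay below 0. This count follows largely from the choice of genes. All 42 members were above 0 in culture, and the lowest members in tissue were named for their tissue values. The culture condition held for 40 of 42 members (21.3% of genes) and the tissue condition for 6 (9.24%). The share of all genes that met both conditions was not counted. The difference between tissue and culture was not tested, and with 1 library per genotype in the tissue it cannot be. Knstrn had a log2 fold change of 0.48 in culture against log2 ratios of -0.49 in Larp7f/f;nestin-Cre and -0.55 in Larp7f/f;Emx1-Cre nIPCs. Birc5 had 0.56 against -0.57 and -0.39. Cdk1 had 0.65 against -0.63 and -0.30, Cdc20 had 0.92 against -0.31 and -0.24, and Ube2c had 0.81 against -0.25 and -0.35. The Larp7f/f;Emx1-Cre values of Cdk1, Cdc20 and Ube2c were above 0 without the 5% of cells with most UMIs, and the size of the culture values rests on wild-type replicate 2.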

How the results depend on the processing

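In neurospheres no member passed under size factors by the DESeq2 median-ratio method in edgeR, without the filter on low counts, or without any 1 Larp7 KO library, and every member stayed above 0. DESeq2 called 17 members. Leaving out 1 library at a time gave 0 to 41 members called and medians of 0.31 to 1.34, both ends set by the wild-type libraries. Replicate numbers are shared by replicates 1 and 2 of both groups, and deviations of same-numbered libraries correlated at -0.005 and 0.093. The deviations of the 2 wild-type libraries from their mean mirror each other. These values therefore cannot show whether same-numbered libraries shared a mouse or a culture. With the replicate block on those 4 libraries 0 members were called with a median of 0.84, against 0 and 0.75 without it, a fit chosen after seeing the data.

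In nIPCs, thinning to 1500 UMIs left 1 and 3 members higher in Larp7f/f;nestin-Cre and Larp7f/f;Emx1-Cre with medians of -0.47 and -0.28, and reversed Cenpf to -0.24 and -0.25, Top2a to -0.02 in Larp7f/f;nestin-Cre and Tpx2 to -0.18 in Larp7f/f;Emx1-Cre. Not every member had a thinned value compared. Over both mutants 10 values stayed, 28 moved and 5 reversed, against 84 values compared with a minimum of 2 markers. The thinned counts and medians therefore need not cover all members. The wild-type cycling share was 57.0% after thinning with the minimum of panel UMIs lowered from 5 to 3. Changed one at a time, both chosen after seeing the data, the lower minimum alone gave 54.7% in wild-type, and thinning alone gave 42.6%, 37.7% and 41.7% in the 3 libraries. Means of log-normalized values gave 28 and 39 members higher and reversed Cenpf to -0.01 in Larp7f/f;nestin-Cre, and Kif22 to 0.02, Cdk1 to 0.04 and Cdc20 to 0.06 in Larp7f/f;Emx1-Cre. Without the 5% of cells with most UMIs, the alternative that also removes likely doublets, 39 members were higher in Larp7f/f;Emx1-Cre with medians of 0.44 in all and 0.28 in G2/M-gated cells, cycling shares were 43.7%, 49.3% and 52.9%, and Kif22 stood at 0.08, Cdk1 at 0.20, Cdc20 at 0.22 and Ube2c at 0.11. With at least 3000 UMIs per cell, chosen after seeing the data, 6 members were higher in Larp7f/f;nestin-Cre and the wild-type cycling share was 58.2%. Of 17 reversed values 12 belonged to named members, and the cause was not tested. A minimum of 200 genes per cell or of 2 markers changed no direction. Depth limits the tissue most in the wild-type library, whose cells had the fewest UMIs.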
